A study of Mus musculus with 10 samples.

Results

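In all, 9 genes of G-protein coupled receptors, none of them an olfactory receptor, were followed in the RNA of microglia, the resident macrophages of the brain. They were Gpr84, Gpr183, Gpr65, Cnr2, Htr2b, Gpr141, Gpr141b, Gprc6a and Npy5r, selected by symbol from 46152 counted genes, and all 9 were among the 28419 genes that passed the filter of more than 1 CPM (counts scaled to a common library total) in at least 3 libraries. The list was picked from results of these same libraries, so the level of each receptor and its difference between treatments are given as a description. The study's thresholds serve below only to count receptors beside the share of all genes, which is no test of the list. Of the 9, the 2 most abundant, Gpr84 and Gpr183, lay at similar levels in both groups, whereas Gpr141b, Gprc6a and Npy5r, which with vehicle lay at 1 to 2 CPM on average, were more than 3-fold higher in the mean with GW2580, and Cnr2 was 2.36-fold higher.

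GW2580 blocks the kinase of CSF1R, the receptor on whose signal microglia depend, and the study asked how the drug alters the microglial transcriptome. The mice were C57BL/6J of both sexes aged 8 to 12 weeks, and by gavage they received either GW2580 at 80 mg/kg/d or its carrier alone (Tween 80 and hydroxymethyl propyl-cellulose) over 8 days. Each group held 2 males and 3 females, and each of the 10 mice gave 1 library. Brain cells were freed with Accutase, enriched on Percoll and selected with magnetic beads for CD11b, a surface protein that monocytes and granulocytes carry too, before cDNA was made with the SMART-Seq v4 PLUS kit.

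A G-protein coupled receptor crosses the membrane with a bundle of helices and, when a ligand binds, activates a G protein inside the cell, which alters cyclic AMP, calcium or ion channels. Microglia are known to use such receptors to sense nucleotides, chemokines, lipids and other signals of injury. Among the receptors followed here, Gpr84 answers to medium-chain fatty acids, Gpr183 to oxysterols, Gpr65 to extracellular protons, Cnr2 to endocannabinoids and Htr2b to serotonin, Gprc6a is a class C receptor for amino acids, Npy5r binds neuropeptide Y, and Gpr141 and Gpr141b are orphans.

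Gpr141 and Gpr141b lie side by side on the minus strand of chromosome 13, Gpr141 (NCBI gene 353346) from 19749680 to 19824336 and Gpr141b (319293) from 19727417 to 19732955 (GRCm38), and of the pair it was Gpr141b whose groups did not overlap. RefSeq lists both as protein-coding, whereas GENCODE M21 lists Gpr141b as a lincRNA. The Gpr141b transcript of GENCODE nevertheless held an open reading frame of 299 codons, against 305 codons in Gpr141, and over 831 aligned bases of the frames 62.1% were identical. Their most alike ungapped stretch of 60 bases is printed to show how far the pair can be told apart by sequence, with the 20 bases that differ in capitals. It covers bases 261 to 320 of the Gpr141 coding sequence and bases 297 to 356 of the Gpr141b frame, both within 1 exon.
Gpr141, chr13:19752284-19752343, minus strand: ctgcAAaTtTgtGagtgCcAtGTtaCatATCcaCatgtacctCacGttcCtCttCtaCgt
Gpr141b, chr13:19729525-19729584, minus strand: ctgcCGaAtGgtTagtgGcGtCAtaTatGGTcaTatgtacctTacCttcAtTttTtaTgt
The longest run of bases shared by the whole transcripts was 15 bases.

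The 250 bases before the RefSeq start site (GRCm38.p6) are shown for 2 pairs of receptors. Gpr84 and Gpr183 had levels that moved together from library to library, and Gpr141b and Gprc6a had groups that did not overlap. The start sites come from a RefSeq table that matched all 9 symbols, with 10 windows since Cnr2 has 2. Of those printed, the window of Gpr141b reaches a few bases into the gene as it was counted. Most of the Gpr84 window lies within the counted gene, whose 5′ end is at 103310670. Capitals mark GGAAGT on either strand, the core bound by ETS factors such as PU.1, which is required for the macrophage lineage.
Gpr84, chr15:103310439-103310688, minus strand: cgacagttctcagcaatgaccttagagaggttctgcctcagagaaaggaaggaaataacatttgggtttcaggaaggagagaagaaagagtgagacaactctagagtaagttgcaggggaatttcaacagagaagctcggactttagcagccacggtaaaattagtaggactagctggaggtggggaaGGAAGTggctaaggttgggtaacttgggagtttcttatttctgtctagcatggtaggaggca
Gpr183, chr14:121965194-121965443, minus strand: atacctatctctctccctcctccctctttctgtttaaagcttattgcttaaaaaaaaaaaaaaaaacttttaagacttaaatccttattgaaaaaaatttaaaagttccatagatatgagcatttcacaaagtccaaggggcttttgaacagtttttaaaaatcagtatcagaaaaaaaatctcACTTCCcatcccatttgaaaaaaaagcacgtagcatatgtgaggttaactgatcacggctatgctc
Gpr141b, chr13:19732952-19733201, minus strand: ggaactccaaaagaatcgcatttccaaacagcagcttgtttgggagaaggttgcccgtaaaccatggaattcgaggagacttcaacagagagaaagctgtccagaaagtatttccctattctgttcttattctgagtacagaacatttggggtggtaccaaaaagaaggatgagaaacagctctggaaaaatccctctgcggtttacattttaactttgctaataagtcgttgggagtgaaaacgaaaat
Gprc6a, chr10:51631459-51631708, minus strand: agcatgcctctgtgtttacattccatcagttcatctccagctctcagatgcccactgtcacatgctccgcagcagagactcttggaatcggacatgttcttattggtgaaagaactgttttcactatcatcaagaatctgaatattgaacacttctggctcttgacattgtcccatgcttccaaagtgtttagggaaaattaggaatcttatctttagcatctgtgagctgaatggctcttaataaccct
The letters GGAAGT or ACTTCC stood 62 to 57 bases before this start site of Gpr84, which is inside the gene as it was counted. For Gpr183 they stood 66 to 61 bases before the start site, outside the counted gene. None of the other 8 windows held these letters. They occur in 19.7% of the 32851 windows of this length, so 2 of 10 is near that share. The letters TATAAA or TTTATA were present in the windows of Gpr65 and Gpr141, and in 12.4% of all windows. These matches describe the letters of the windows.

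The depth was alike in both groups, with 12550418 to 20854218 fragments assigned to genes with vehicle and 13228819 to 26079343 with GW2580. Fragments on no annotated exon took 38.4% to 49.1% of the records with vehicle and 38.7% to 60.1% with GW2580. Library totals were multiplied by scaling factors (TMM) that ran from 0.691 in GW2580 3 to 1.61 in GW2580 4. A low factor raises every CPM value of its library, and a high factor lowers it. The 6 microglial markers, Tmem119 and P2ry12 among them, were all detected and summed to 9103 to 22333 CPM with vehicle, lowest in vehicle 5, and to 11726 to 41634 CPM with GW2580, highest in GW2580 3. Markers of other cells stood apart in single libraries. The 5 oligodendrocyte markers, led by Mbp, reached 15047 CPM in vehicle 2 and 3081 CPM in vehicle 5 against 44.6 to 1369 CPM elsewhere, the 6 monocyte and granulocyte markers, led by S100a9, reached 12930 CPM in vehicle 1 against 161 to 3614 CPM elsewhere, and the 3 B cell markers, led by Cd79a, reached 269 CPM in vehicle 5 against at most 49.2 CPM elsewhere. On the first principal component vehicle 5 (-77.9) and GW2580 5 (45.8) lay at the far ends of the other group's side, beyond all libraries of that group. Fold changes without them are therefore given where a statement rests on them. In bulk RNA, fewer cells of a type and less RNA per cell cannot be told apart.

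Compared per kilobase of counted exon (RPKM), the receptors spanned a wide range of levels with vehicle. Gpr84 averaged 112 RPKM and Gpr183 averaged 85.6 RPKM, and although their ranges overlapped, Gpr84 was the higher in each of the 10 libraries. Gpr65 followed at 7.10 RPKM and Cnr2 at 2.01 RPKM, and in vehicle the ranges of Gpr183, Gpr65 and Cnr2 did not overlap one another. Below these, Gpr141 (1.41 RPKM), Htr2b (1.00 RPKM), Gpr141b (0.720 RPKM), Npy5r (0.506 RPKM) and Gprc6a (0.402 RPKM) formed a series in which the ranges of neighbours overlapped, also that of Cnr2 with Gpr141. With GW2580, Gpr141b exceeded Htr2b in all 5 libraries, whereas with vehicle Htr2b exceeded Gpr141b in 4 of 5.

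**Figure D1:**
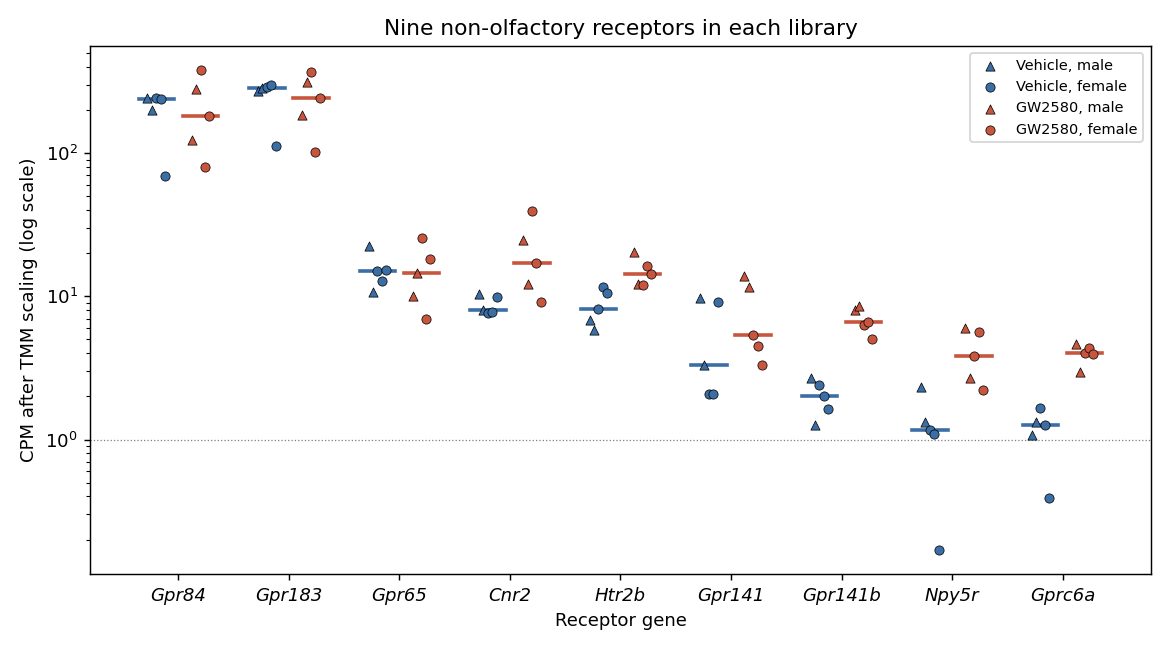
CPM after TMM scaling (log scale) of the 9 receptor genes in each of 10 libraries, with vehicle in blue, GW2580 in red, males as triangles, females as circles and a bar at each group's median; the dotted line marks 1 CPM. Gpr84 and Gpr183 overlap widely between groups with a low vehicle 5, whereas every GW2580 library of Gpr141b and Gprc6a lies above every vehicle library.

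Gpr84 (NCBI gene 80910, chromosome 15 from 103308233 to 103310670) stood at 243, 202, 243, 238 and 69.5 CPM in vehicle 1 to 5 and at 123, 280, 382, 80.7 and 183 CPM in GW2580 1 to 5. In the vehicle group 4 libraries lay close together with vehicle 5 far below, and the GW2580 libraries were spread on both sides of them. The means were 199 ± 74.4 CPM and 209.8 ± 122 CPM (SD, n = 5 each), with a log2 fold change of 0.08 ± 0.46 (SE). Without vehicle 5 it was -0.14.

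Gpr183 (NCBI gene 321019, chromosome 14 from 121952331 to 121965193) had 273, 285, 291, 299 and 112 CPM in vehicle 1 to 5 and 185, 313, 372, 103 and 242 CPM in GW2580 1 to 5. After TMM scaling the pattern was that of Gpr84, with vehicle 5 and GW2580 4 the lowest and GW2580 3 the highest. The TMM factors raised all genes of GW2580 3 and lowered all genes of GW2580 4, and their part in this pattern was not tested. The vehicle mean was 252 ± 78.8 CPM and the GW2580 mean 243 ± 106 CPM. Their log2 fold change was -0.05 ± 0.40, or -0.24 without vehicle 5. The gene lies within Ubac2, which is transcribed from the opposite strand, and the exons of the pair share 0 bases. Fragments were counted regardless of strand, and the part of unspliced Ubac2 RNA in the Gpr183 counts was not tested.

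Once each group was set to its own mean, the log2 levels of Gpr84 and Gpr183 correlated with r = 0.98 over the 10 libraries, which share depth and scaling. The microglial marker sum moved with both, with r = 0.93 for Gpr84 and 0.92 for Gpr183. Among 7580 genes at 20 CPM or more, those most alike to Gpr84 were Fcgr2b, an inhibitory Fc receptor (r = 0.99), Ctsz, a lysosomal protease (0.99), and Lat2, an adaptor of immune receptors (0.99), and those most alike to Gpr183 were Itm2b, a membrane protein (1.00), Ctsz (0.99) and Anxa3, an annexin (0.99). Per 10000 CPM of microglial markers, Gpr84 had a median of 106 CPM with vehicle and 91.7 CPM with GW2580, and Gpr183 had 134 and 102 CPM, with overlapping groups for both. This division was chosen after seeing the data. The part of the marker level in these values was not tested.

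**Figure D2:**
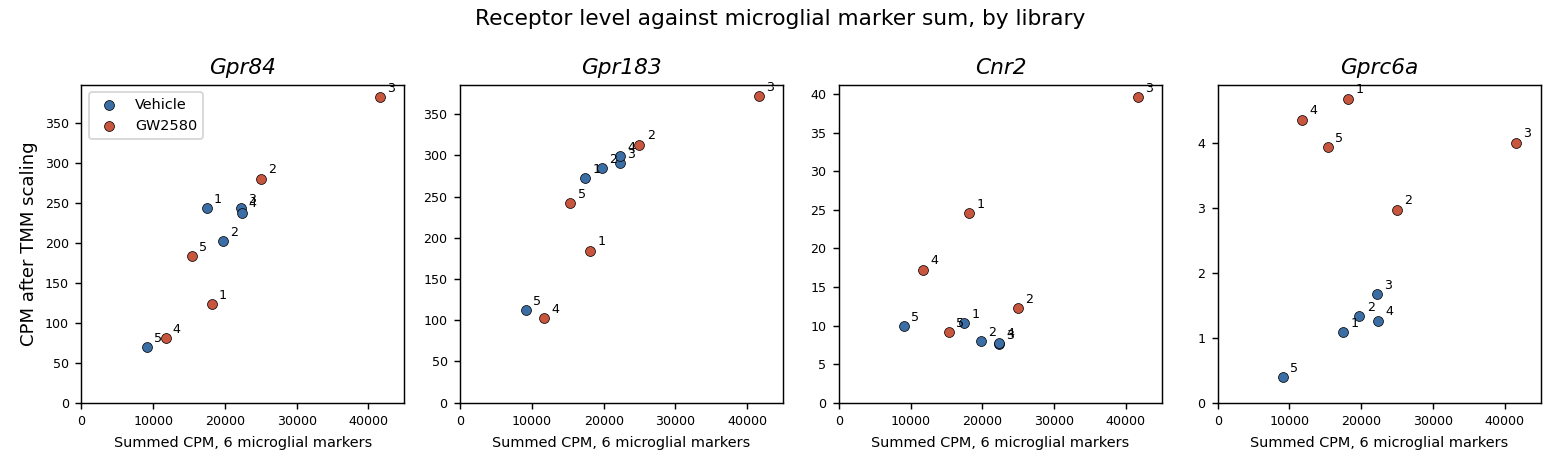
CPM of Gpr84, Gpr183, Cnr2 and Gprc6a (vertical axes) against the summed CPM of 6 microglial markers (horizontal axes), 1 point per library with its replicate number, vehicle in blue and GW2580 in red. Gpr84 and Gpr183 follow the marker sum in both groups, whereas the 5 GW2580 libraries lie above the 5 vehicle libraries for Gprc6a at all marker sums.

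Gpr65 (NCBI gene 14744, chromosome 12 from 98268635 to 98276722), which raises cyclic AMP at acid pH, was at 22.4, 10.8, 15.0, 12.7 and 15.2 CPM in vehicle 1 to 5 and at 10.1, 14.5, 25.6, 6.96 and 18.3 CPM in GW2580 1 to 5. After TMM scaling the groups covered one another, with the lowest value in GW2580 4 and the highest in GW2580 3. These libraries also had the highest and the lowest TMM factor (1.61 and 0.691), and the part of the scaling in this spread was not tested. The log2 fold change was -0.02 ± 0.36, and without GW2580 3, the highest library, it was -0.29. Among the genes most alike to it were Sun2 of the nuclear envelope (r = 0.98) and Tfam, which packs mitochondrial DNA (0.92). Its level was lower where more fragments lay on no annotated exon (r = -0.67 within groups).

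Cnr2 (NCBI gene 12802, chromosome 4 from 135895189 to 135920219), the peripheral cannabinoid receptor, was at 10.3, 7.98, 7.60, 7.75 and 9.89 CPM in vehicle 1 to 5 and at 24.6, 12.3, 39.6, 17.2 and 9.14 CPM in GW2580 1 to 5. The vehicle libraries lay within a narrow range and 4 of 5 GW2580 libraries above it, with GW2580 5 inside. The means were 8.71 ± 1.29 CPM and 20.6 ± 12.1 CPM, and the log2 fold change was 1.24 ± 0.38. Without GW2580 3, whose microglial marker sum was also the highest, it was 0.86, below the 2-fold threshold. Per 10000 CPM of microglial markers, 2 of 5 GW2580 libraries lay above all vehicle libraries. Galnt4 (r = 0.98) and Gcnt1 (0.97), which add sugars to glycoproteins, and Gsap (0.98) were the genes most alike to Cnr2.

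Htr2b (NCBI gene 15559, chromosome 1 from 86097546 to 86116231), a serotonin receptor that couples to phospholipase C, had 6.86, 5.81, 8.19, 11.7 and 10.6 CPM in vehicle 1 to 5 and 20.5, 12.3, 11.9, 16.4 and 14.3 CPM in GW2580 1 to 5. All GW2580 libraries lay above all vehicle libraries, though GW2580 3 exceeded vehicle 4 by little. The log2 fold change was 0.80 ± 0.30, under the 2-fold threshold. It was 1.12 when libraries were scaled by size alone, which moved the median gene to 0.23, and 0.55 with the share of fragments outside annotated exons as a covariate. Within groups Htr2b was higher where that share was higher (r = 0.65), and its part in the difference was not tested. Most alike were Gm46970, a long noncoding RNA (r = 0.95), Ccdc18 (0.95) and Strbp (0.91). Htr2b overlaps Psmd1 on the opposite strand with 0 shared exon bases. Fragments were counted regardless of strand, and the part of unspliced Psmd1 RNA in the Htr2b counts was not tested.

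Gpr141 had 9.67, 3.29, 2.09, 2.07 and 9.10 CPM in vehicle 1 to 5 and 14.0, 11.6, 5.39, 4.50 and 3.32 CPM in GW2580 1 to 5. The groups overlapped, with a coefficient of variation of 72.8% with vehicle and 60.9% with GW2580. The log2 fold change was 0.56 ± 0.53, and it ranged from 0.25 to 0.96 over 21 alternative settings.

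Its neighbour Gpr141b was at 2.67, 1.26, 2.42, 2.01 and 1.63 CPM in vehicle 1 to 5 and at 8.01, 8.57, 6.28, 6.67 and 5.01 CPM in GW2580 1 to 5. The lowest GW2580 library lay well above the highest vehicle library. The mean was 2.00 ± 0.573 CPM with vehicle and 6.91 ± 1.42 CPM with GW2580, and the log2 fold change of 1.79 ± 0.32 stayed between 1.53 and 2.04 over the alternatives. Within groups the levels of Gpr141 and Gpr141b correlated with r = 0.39. Per 10000 CPM of microglial markers 4 of 5 GW2580 libraries lay above all vehicle libraries.

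Gprc6a (NCBI gene 210198, chromosome 10 from 51614823 to 51631458) rested on 15, 19, 20, 22 and 7 counts in vehicle 1 to 5 and on 91, 45, 72, 92 and 58 counts in GW2580 1 to 5. In CPM these were 1.08, 1.33, 1.67, 1.26 and 0.393 with vehicle and 4.67, 2.97, 4.00, 4.36 and 3.93 with GW2580. Vehicle 5 was the lowest at 0.393 CPM with an exact Poisson 95% interval of 0.158 to 0.810 CPM, and the intervals of the highest vehicle library (1.02 to 2.58 CPM) and the lowest GW2580 library (2.16 to 3.97 CPM) overlapped. The groups did not overlap, and the log2 fold change was 1.80 ± 0.38, or 1.58 without vehicle 5. Gprc6a was also the only 1 of the 9 receptors whose groups did not overlap per 10000 CPM of microglial markers, with 0.432 to 0.751 CPM against 0.961 to 3.71 CPM.

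Npy5r (NCBI gene 18168, chromosome 8 from 66679965 to 66688094) had 32, 19, 14, 19 and 3 counts in vehicle 1 to 5 and 117, 41, 69, 120 and 33 counts in GW2580 1 to 5, or 2.31, 1.33, 1.17, 1.09 and 0.169 CPM and 6.01, 2.70, 3.83, 5.68 and 2.23 CPM. Of the GW2580 libraries 4 lay above all vehicle libraries, and GW2580 5 lay just below vehicle 1. The log2 fold change was 1.76 ± 0.52, the least precise of the 4 receptors past 2-fold, and 1.48 without vehicle 5, where the 3 counts allow 0.0348 to 0.493 CPM (exact Poisson 95% interval). Gprc6a and Npy5r correlated within groups with r = 0.80, with vehicle 5 the lowest for both. Among vehicle 1 to 4, vehicle 1 had the highest Npy5r (2.31 CPM) but the lowest Gprc6a (1.08 CPM). Both receptors were lower where B cell markers were higher (r = -0.86 and -0.73) and where T cell markers were higher (r = -0.84 and -0.71). Vehicle 5 was the highest in both marker lists. These r were not computed without vehicle 5, and the part of such cells in the receptor levels was not tested.

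By the thresholds of the study, a fold change over 2 with an unadjusted p under 0.05 in edgeR's quasi-likelihood F test, 4 of the 9 receptors lay past both on the higher side, namely Gpr141b, Cnr2, Gprc6a and Npy5r, beside 4.01% of all tested genes, and 0 lay past both on the lower side, beside 6.7%. Groups did not overlap for 3 of 9 receptors, each higher with GW2580 (Gpr141b, Htr2b and Gprc6a), beside 2.04% of all genes, and 7 of 9 log2 fold changes were above 0, beside 48.4%. The list was picked from these values, so nothing is read from these shares. After Benjamini-Hochberg adjustment over all genes, 0.0% of the 28419 genes had a p under 0.05 by edgeR, although 4186 genes had an unadjusted p under 0.05, and limma-voom passed 0 genes and DESeq2 177 genes. Without vehicle 5 and GW2580 5, edgeR passed 4844 genes. These libraries lay on the other group's side of the first principal component, so leaving them out sets the groups apart by choice.

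The receptors that are abundant in microglia and those near 1 CPM were set side by side. Of the 5 receptors with a mean of 10 CPM or more over all 10 libraries (Gpr84, Gpr183, Gpr65, Cnr2 and Htr2b) 1 lay past the thresholds and the median log2 fold change was 0.08, and of the 4 below 10 CPM (Gpr141, Gpr141b, Gprc6a and Npy5r) 3 lay past them and the median was 1.78. Htr2b, with group means of 8.64 and 15.1 CPM, was the nearest above this level and Gpr141, with 5.24 and 7.75 CPM, the nearest below. Cnr2 and Htr2b reached 10 CPM only with the GW2580 libraries included, and of the 3 that averaged 10 CPM or more with vehicle (Gpr84, Gpr183 and Gpr65) 0 lay past the thresholds. Over all tested genes the share past the thresholds on the higher side was 8.28% under 2 CPM, 4.24% from 2 to 10 CPM and 0.905% at 10 CPM or more. As the filter asks for 3 libraries, a gene of low level can enter through 1 group alone. The part of this in the low-level shares of all genes was not tested. Of the other non-olfactory receptors, 3 of 84, 2 of 157 and 4 of 65 lay past the thresholds on the higher side at these levels. These shares of 3.57%, 1.27% and 6.15% rest on too few genes to read an order from. The 3 under 2 CPM (Mrgprb2, Mrgprb5 and Agtr2) all passed the filter through GW2580 libraries alone. On the lower side the shares were 5.95%, 14.6% and 3.08%, beside 6.87%, 11.9% and 8.04% of protein-coding genes. Median log2 fold changes were -0.48, -0.27 and 0.14 for these receptors, and -0.23, -0.16 and -0.05 for protein-coding genes.

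**Figure D3:**
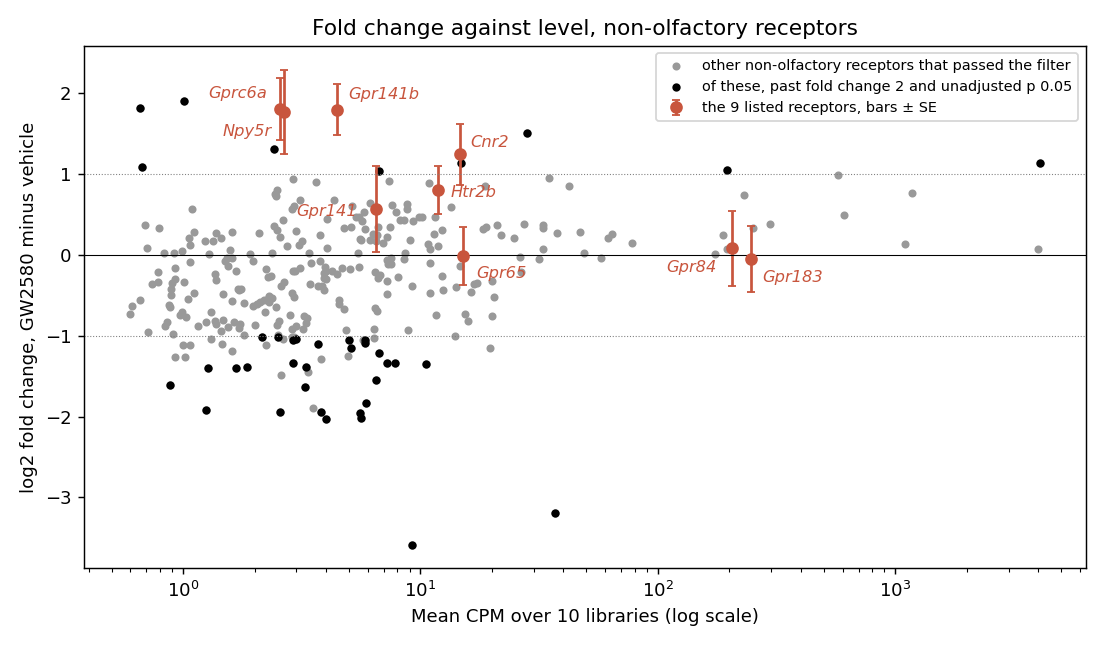
Log2 fold change of GW2580 against vehicle (vertical axis) by mean CPM over 10 libraries (horizontal axis, log scale) for the 9 receptors in red with SE bars and for 306 other non-olfactory receptors in grey, or black where past both thresholds; dotted lines mark 2-fold. Of the other receptors 9 lie past the thresholds above and 30 below, and Gpr141b, Gprc6a and Npy5r lie near 1.8 on the vertical axis.

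Of 349 other non-olfactory receptor genes counted, taken by symbol families, 306 passed the filter. Past the thresholds lay 9 on the higher side (2.94%) and 30 on the lower side (9.80%). The shares were 2.35% and 9.03% of protein-coding genes, and 4.01% and 6.70% of all genes. The median log2 fold change of these receptors was -0.23, against -0.09 over protein-coding genes and -0.03 over all genes. Those higher with the smallest p were Gpr165, an orphan, from 14.6 ± 4.89 to 41.5 ± 21.1 CPM, Ccr9, a chemokine receptor (log2 fold change 1.03 ± 0.33), Mrgprb2, known from mast cells (1.81 ± 0.63), Calcrl, a subunit of the CGRP receptor (1.13 ± 0.41), and Mrgprb1 (1.30 ± 0.48). The Mrgprb genes are close copies of one another, and fragments that matched more than 1 place were not counted, so their counts may miss fragments. Of the 9 higher, Mrgprb2, Mrgprb5 and Agtr2 passed the filter through GW2580 libraries alone, with vehicle means of 0.292, 0.431 and 0.437 CPM. Nothing is read from the calls of these genes. On the lower side were Adgrl1, a latrophilin, from 15.2 ± 8.40 to 5.97 ± 1.49 CPM (-1.35 ± 0.38), Adgra1 (-1.33 ± 0.38), Gpr162 (-2.03 ± 0.59), Cxcr1 (-1.92 ± 0.58) and Gprc5b (-1.15 ± 0.35). Without vehicle 5, 5 of the 9 and 12 of the 30 lay past the thresholds still. Gpr165, Adgrl1, Adgra1, Gpr162 and Cxcr1 lay past them whichever 1 library was left out, though without vehicle 5 Gpr162 was at -1.14 and Cxcr1 at -1.29, whereas the call of each of the other 5 ended without at least 1 library, that of Ccr9 without vehicle 2 (0.82), that of Mrgprb1 without GW2580 1 (0.92), that of Calcrl without vehicle 5 (0.91), that of Gprc5b without vehicle 2 (-0.91) and that of Mrgprb2 by falling below the filter without GW2580 1.

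Among 31 other receptors known from microglia, 2 lay past the thresholds, both higher, and 1 of them was Cx3cr1, the fractalkine receptor, from 2543 ± 405 to 5594 ± 3195 CPM (log2 fold change 1.14 ± 0.46). Without GW2580 3 Cx3cr1 was at 0.75, under 2-fold. The ADP receptor P2ry12, itself 1 of the microglial markers, was at 3875 ± 1482 and 4074 ± 1908 CPM (0.07 ± 0.49). In this list 23 of 31 values were above 0 with a median of 0.21. Above 0 were 48.4% of all genes and 64.6% of other non-olfactory receptors at 10 CPM or more, a set that overlaps this list and had a median of 0.14. Past the thresholds on the higher side lay 4.01% of all genes, 0.905% of all genes at 10 CPM or more and 6.15% of those receptors.

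The genes that share a ligand or family with the 9 receptors were taken list by list. None of the 3 other proton-sensing receptors passed the thresholds (Gpr132 -0.44 ± 0.44, Gpr4 -0.38 ± 0.49), nor did the 4 enzymes that make or break down the oxysterol ligand of Gpr183 (Cyp27a1 0.47 ± 0.35, Hsd3b7 0.10 ± 0.35) or the 4 tested receptors for fatty and other acids (Ffar2 0.12 ± 0.68, Gpbar1 -0.88 ± 0.62). Of 11 cannabinoid receptors and enzymes beside Cnr2, 1 was lower, the lipid receptor Gpr18, from 4.03 ± 0.806 to 1.97 ± 0.885 CPM (-1.04 ± 0.37, and -0.84 without GW2580 4), and the endocannabinoid hydrolase Abhd12 (0.39 ± 0.41) and the synthase Daglb (0.86 ± 0.41) did not pass. Of 4 tested neuropeptide Y genes 0 passed, with Npy itself at 21.6 CPM in vehicle 2 and at most 2.17 CPM elsewhere, and Dpp4, which trims the peptide, at 0.56 ± 0.29.

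Of 18 serotonin genes 4 lay past the thresholds on the lower side, Htr2c, Maob, Maoa and Htr3a, an ion channel, while Htr4 was at 0.10 ± 0.28. Htr2c, the relative of Htr2b, stood at 78.3 CPM in vehicle 5 and between 0.791 and 2.51 CPM in the other 9 libraries, and Maob, which degrades amines, at 242 CPM in vehicle 5 and at most 20.9 CPM elsewhere. Without vehicle 5 the log2 fold change was -0.30 for Htr2c, -0.20 for Maob, -0.67 for Maoa and -0.71 for Htr3a, and 0 of the 4 passed. Of 17 tested class C receptors beside Gprc6a, 3 were lower, Gprc5b, Grm2 (-1.06 ± 0.36) and Grm8 (-1.96 ± 0.78), while the abundant Gprc5c (-1.15 ± 0.61) and Gabbr2 (-0.82 ± 0.37) did not pass. For Gprc5b and Grm2 all GW2580 libraries lay below all vehicle libraries, though without vehicle 2 they were at -0.91 and -0.90, and Grm8 was at -0.08 without vehicle 5.

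Downstream of the receptors, 3 of 13 G protein alpha subunits were lower, Gnai1 (-2.47 ± 0.90), Gnaz (-1.37 ± 0.50) and Gnao1 (-1.29 ± 0.48), whereas the abundant Gnai2, which inhibits adenylyl cyclase, was at 782 ± 79.0 and 903 ± 441 CPM (0.21 ± 0.39) and Gnas, which stimulates it, was at -0.92 ± 0.59. Without vehicle 5 the call of each of the 3 ended, with Gnai1 at -1.59, Gnaz at -0.80 and Gnao1 at -0.93. Of 16 beta and gamma subunits 4 were lower, Gng13, Gng11, Gnb5 and Gng3, while Gng10 (-0.56 ± 0.49) and Gnb1 (-0.41 ± 0.35) did not pass. Gng13 and Gng3 reached 42.8 and 69.4 CPM in vehicle 2 and Gnb5 reached 118 CPM in vehicle 5, the libraries with the most oligodendrocyte markers and also the most neuron markers (371 and 119 CPM against 41.5 to 97.4 CPM elsewhere) and astrocyte markers (369 and 498 CPM against 120 to 277 CPM), and the part of such cells in these values was not tested. Without vehicle 2, Gng13 was at -0.89 and Gng3 at -0.11 and Gng11 fell below the filter, and without vehicle 5 Gnb5 was at -0.51. None of 7 receptor kinases and arrestins (Grk2 0.49 ± 0.39, Grk6 -0.03 ± 0.50), of 18 RGS proteins (Rgs2 -0.41 ± 0.58, Rgs10 -1.04 ± 0.59) or of 13 adenylyl cyclases and phospholipases C beta (Adcy7 -0.03 ± 0.34, Plcb2 0.31 ± 0.36) passed. With all lists together, 2 of 159 tested genes lay past the thresholds on the higher and 15 on the lower side. The higher and lower shares were 4.01% and 6.70% over all genes, and 2.35% and 9.03% over protein-coding genes.

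Sex, which played no part in the choice of the receptors, was tested with treatment as a covariate. By edgeR's quasi-likelihood F test 0 of 9 receptors had an adjusted p under 0.05, beside 0.0915% of all genes, and DESeq2 gave 0 of 9 too. At an unadjusted p under 0.05, which 2.02% of all genes reached, 1 receptor passed, Gpr141, with a log2 difference of male against female of 1.06 ± 0.48 (unadjusted p = 0.0453, adjusted p = 1). In CPM its means were 6.48 in males and 4.42 in females with vehicle, and 12.8 and 4.40 with GW2580. The other 8 receptors differed by -0.22 to 0.64. The interaction of sex and treatment passed for 0 of 9 receptors at an adjusted p under 0.05 by edgeR and by DESeq2, beside 0.0% of all genes by edgeR, and for 0 of 9 at an unadjusted p under 0.05, beside 2.52% of all genes.

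**Figure D4:**
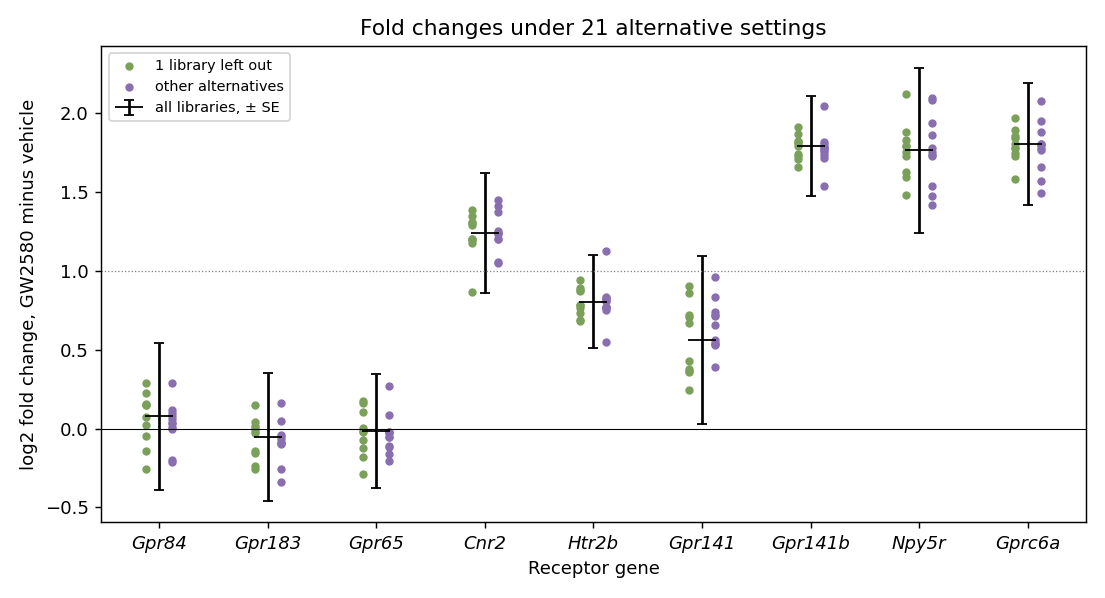
Log2 fold change of GW2580 against vehicle for each receptor with all libraries (black, ± SE), with 1 library left out (green) and under the other alternatives (purple); the dotted line marks 2-fold. Gpr141b, Npy5r and Gprc6a lie at 1.42 or above throughout, Cnr2 falls below 1 in 1 of 21 settings, and Gpr84, Gpr183 and Gpr65 lie on both sides of 0.

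Over 21 alternatives for each receptor, Gpr141b, Gprc6a and Npy5r lay past both thresholds in each, and Cnr2 in all but that without GW2580 3, while 2.15% to 7.47% of all genes did so on the higher side. The alternatives use the libraries from which the list was picked, so this describes the settings and is no further support. Gprc6a ranged from 1.49 to 2.08 and Npy5r from 1.42 to 2.12 on the log2 scale. Htr2b passed 2-fold under scaling by library size alone, the setting with that highest share. Gpr84 ranged from -0.25 to 0.29, Gpr183 from -0.34 to 0.16 and Gpr65 from -0.29 to 0.27, so the sign of these 3 depended on the setting.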

How the data were processed

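RNA of CD11b-selected brain microglia from 10 mice was sequenced as read pairs. The authors trimmed them (Trimmomatic), aligned them to GRCm38 with STAR and counted unique fragments on RefSeq exons regardless of strand; the deposited counts, whose header names featureCounts 1.6.3, were not normalized. The deposited exon length of each gene was used for RPKM, which was computed here. The labels gave each library's group, sex and replicate number. Symbols and coordinates come from a RefSeq gene table of GRCm38.

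Genes that exceeded 1 CPM in 3 or more libraries entered the fit, were scaled by TMM and tested for treatment with edgeR 4.0.16 (R 4.3.3). The filter, TMM and treatment as the only term follow the study's methods, which name edgeR but not which of its tests; the quasi-likelihood test on untransformed counts was chosen here. Log2 levels for correlations used a prior count of 2 and were centred on each group's mean. Alternatives were DESeq2 1.42.0, limma-voom (limma 3.58.1), other scalings and filters, sex, the replicate block, the percentage of records on no annotated exon, and leaving out libraries. Scripts were checked on simulated counts. Other steps used Python 3.11.15, pandas 2.3.3, scipy 1.17.1 and matplotlib 3.10.9.

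The receptors and gene lists were chosen with earlier results of these data known. The genes named are the 9 receptors, the 2 most abundant and up to 3 called genes of each list, the 5 other receptors of smallest p in each direction, the 3 genes most alike to each receptor at 10 CPM or more, and the most abundant markers; Maoa or Htr3a and Gng3 or Gng11, past 3 called genes, were named after their values were seen, to complete a count. Poisson intervals cover counting error only, since no molecular identifiers mark which reads are copies of 1 molecule; p-values rest on the spread between mice. Protein sequences were not used here. Some genes that this rule names are not reported here.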

Additional observations from a re-analysis of the deposited data

Results flagged for a closer look

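In 2 of the 18 groups of 5 libraries tested for a library that lies apart (9 receptors in 2 groups), the lowest library was farther from its neighbour than Dixon's 95% critical value for 5 samples allows. Chance alone marks about 1 in 20 groups. Both were vehicle 5, with Gpr84 at 69.5 CPM (gap over range 0.760) and Gpr183 at 112 CPM (0.858). As the levels of these receptors moved together, they are not separate findings. Vehicle 5 also had the lowest microglial marker sum of the 10 libraries, at 9103 CPM, and the part of that in both values was not tested.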

How the results depend on the processing

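The log2 fold change of each of the 9 receptors moved by less than the spread between replicates in all 21 alternatives, and 0 receptors passed an adjusted p for sex in its 12 alternatives or for the interaction in its 2. Counts over all genes moved more. From 1141 higher and 1905 lower, they became 2123 and 875 when scaled by library size alone and 705 and 476 with the percentage on no annotated exon as a covariate. Without vehicle 5 and GW2580 5 they were 1928 and 4129. At an adjusted p under 0.05 by edgeR they were 0 and 0 with all libraries. The lower count was 3120 without a filter and 938 without vehicle 2 and vehicle 5. Leaving out 1 library gave 597 (without GW2580 1) to 1739 (without vehicle 5) higher and 1087 (without GW2580 1) to 3637 (without GW2580 5) lower; 736 were higher without GW2580 4. Of the other receptors, 9 higher and 30 lower became 17 and 9 by library size alone; 6, 2 and 55 were lower with the exon covariate, without vehicle 2 and 5, and without vehicle 5 and GW2580 5, and leaving out 1 library gave 3 (without GW2580 1) to 11 (without vehicle 1 or 3) higher and 12 (without GW2580 1) to 54 (without GW2580 5) lower. For the signalling and ligand lists, 2 higher and 15 lower became 0 and 8 by limma-voom, 5 and 6 by library size alone, 6 and 1 with the exon covariate, 5 and 1 without vehicle 2 and 5, and 7 and 23 without vehicle 5 and GW2580 5, with 1 higher without a filter, and leaving out 1 library gave 0 (without vehicle 2 or GW2580 3) to 5 (without GW2580 5) higher and 10 (without vehicle 2 or 5) to 27 (without GW2580 5) lower. The causes were not tested, beyond the smaller or larger number of libraries and genes.

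With the replicate number as a block, 1055 genes were higher and 1499 lower, 5 other receptors were higher, and 0 list genes were higher and 8 lower; the same 4 receptors of the 9 lay past the thresholds. Pairing by number was not seen, though so few pairs cannot exclude it. Same-numbered libraries correlated with r = -0.05, 0.39, 0.09, -0.44 and -0.57, and 1 of 5 vehicle and 1 of 5 GW2580 libraries correlated best with its own number. Depth limits the receptors near 1 CPM, where a vehicle library held as few as 3 counts.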
